A study of Mus musculus with 9 samples.

Results

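Intermediate filament genes were examined in B16F10 cells, a mouse melanoma line, in which the study compared cells labelled as Tada2b knockout with control cells. The 10 genes Vim, Nes, Des, Krt7, Krt8, Krt18, Krt19, Lmna, Synm and Prph were taken by symbol from a table of 54752 Ensembl genes, and all 10 were found in it. The libraries labelled knockout carried 1 of 2 guides named for Tada2b, Tada2bsg1 (guide 1) or Tada2bsg2 (guide 2), with 3 libraries each. The control was a guide named for GFP (GFPsg, genotype given as WT), also with 3 libraries. All cells were cultured in DMEM with 10% FBS, and mRNA was sequenced after preparation by a stranded KAPA kit. The labels do not say whether replicates were separate cultures or whether the cells were clones, so p-values here measure the spread among these 9 libraries and nothing wider, and that spread may be technical.

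Intermediate filaments are rope-like polymers that give cells and nuclei mechanical resilience, and most are expressed in a pattern tied to cell type. Vimentin, desmin and peripherin are type III proteins, nestin and synemin are long proteins that join filaments of other subunits, and keratins polymerise only as pairs of a type I and a type II chain. Lamins line the inside of the nuclear envelope, with A-type chains made from Lmna and B-type chains from Lmnb1 and Lmnb2. In pigment cell tumours vimentin is the usual cytoplasmic filament protein, and nestin is a neural crest and progenitor marker.

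Each library held between 70.6 and 76.9 M counts (M, mega). The melanoma label was checked on the pigment cell genes Dct, Mlana, Pmel, Tyr and Tyrp1, all of which were detected in every group, with group means (CPM, counts scaled to a common library total) between 92.3 and 2510 for guide 1, between 146 and 3547 for guide 2 and between 692 and 9002 for GFPsg. All 5 fell in the libraries labelled knockout, with log2 changes of −2.58 for Tyr, −2.15 for Pmel, −1.90 for Mlana, −1.87 for Dct and −1.59 for Tyrp1 (highest edgeR adjusted p = 1.72e-16), and the part of this fall in the filament results was not tested. The targeted gene Tada2b averaged 32.8 ± 0.53 CPM with guide 1, 27.0 ± 1.73 CPM with guide 2 and 26.6 ± 1.40 CPM in GFPsg (SD, n = 3), so its mRNA was not lower in the libraries labelled knockout. Its log2 change was 0.30 with guide 1 (edgeR adjusted p = 0.000213) and 0.02 with guide 2 (edgeR adjusted p = 0.806). Grpel1 on the other strand shares 10.8% of the Tada2b exons and had 7438 to 9301 reads with the guides and 7716 to 8217 reads in GFPsg, so reads of the shared stretch cannot be assigned without the strand setting of the counting, which was not given. Counts summed over a gene do not show an edited site, and the labels are used as given. In bulk RNA, fewer cells expressing a gene and less RNA per cell cannot be told apart.

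Of the 10 genes, 7 were high enough to be tested, and all 7 were higher in the libraries labelled knockout. Peripherin mRNA (Prph) was 3.82-fold higher, those of nestin (Nes), synemin (Synm), keratin 7 (Krt7) and desmin (Des) 2.51-fold to 2.71-fold higher, lamin A/C mRNA (Lmna) 1.55-fold higher and vimentin mRNA (Vim) 1.33-fold higher. The epithelial keratins Krt8, Krt18 and Krt19 were at 0 or 1 read in every library. A gene was called at an edgeR adjusted p under 0.05, which 24.7% of the 17931 tested genes met in the higher direction and 26.3% in the lower direction when both guides were set against GFPsg. The higher genes thus made up 48.4% of all calls, or 63.3% when libraries were scaled by size alone. Krt7 had passed the filter on low counts only through the libraries of the guides, so the count of 7 includes a gene that had to be higher with the guides to be tested. The members had also been chosen with earlier results of these data known. None of the 7 lost its direction when libraries were scaled by size alone or by the DESeq2 size factors. For each of the 7, guide and control libraries did not overlap in CPM. The share of all tested genes without such overlap was not computed, so the separation is not shown to be particular to these genes.

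Levels were compared between genes as TPM, in which counts are divided by exon length and scaled to a fixed sum per library. Vim was the highest member by a wide margin, at 877 ± 29.5 TPM with guide 1, 898 ± 23.7 TPM with guide 2 and 625 ± 35.7 TPM in GFPsg (SD, n = 3). Lmna came next, at 59.8 ± 3.35, 59.6 ± 2.53 and 36.0 ± 3.79 TPM in the same order. Nes followed at 18.9 ± 0.96 TPM with guide 1, 18.9 ± 2.67 TPM with guide 2 and 6.54 ± 1.05 TPM in GFPsg. None of these 3 genes overlapped its neighbour in this order in any group. The next pair, Prph and Des, had no fixed order. Prph lay between 1.95 and 2.43 TPM in the guide libraries, above Des at 1.35 to 1.87 TPM, whereas in GFPsg Prph lay between 0.488 and 0.563 TPM and Des between 0.519 and 0.705 TPM, so that the control values of the pair overlapped. Synm averaged 0.489 ± 0.07, 0.491 ± 0.06 and 0.172 ± 0.05 TPM with guide 1, guide 2 and GFPsg. Krt7 averaged at most 0.0522 TPM in any group.

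**Figure D1:**
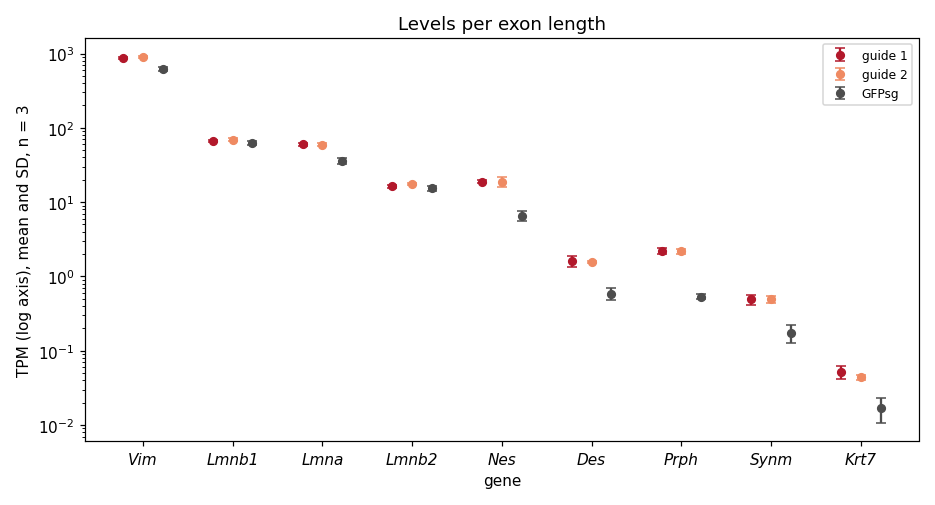
TPM of 7 members and of the B-type lamin genes Lmnb1 and Lmnb2 on a log axis, as mean and SD of 3 libraries with guide 1, with guide 2 and in GFPsg. Vim stands above all other genes in every group, and Prph lies above Des with the guides but not in GFPsg.

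Vim (ENSMUSG00000026728, chromosome 2, 13573927 to 13582826, plus strand of mm10) encodes vimentin, the main cytoplasmic filament of mesenchymal and many tumour cells. It had 1988, 2038 and 1988 CPM with guide 1 and 2009, 2028 and 2015 CPM with guide 2, against 1530, 1515 and 1493 CPM in GFPsg. The guide libraries all lay above the control libraries. The log2 change was 0.41 ± 0.03 (SE; edgeR adjusted p = 3.62e-09). Among all counts Vim took 0.202% to 0.207% with the guides and 0.143% to 0.150% in GFPsg. Its share of the summed TPM of all 68 intermediate filament genes found in the table was 81.3 ± 0.373% with guide 1, 81.2 ± 0.382% with guide 2 and 80.0 ± 0.300% in GFPsg (SD, n = 3). The pool was thus mostly vimentin mRNA in each group. Within it, the share of Lmnb1 was 6.19 ± 0.175% with guide 1, 6.26 ± 0.102% with guide 2 and 8.01 ± 0.0713% in GFPsg, while that of Nes was 1.75 ± 0.0361%, 1.70 ± 0.197% and 0.834 ± 0.0852% in the same order. Lmnb1 itself was not called (log2 change 0.03). The shares depend on the length used. With the longest transcript, Vim took 84.8% to 85.6% with the guides and 84.3% to 84.9% in GFPsg, which overlap. Lmnb1 then took 4.03% to 4.30% and 5.41% to 5.50%.

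Des (ENSMUSG00000026208, chromosome 1, 75360329 to 75368579, plus strand) encodes desmin, the muscle type III filament. It had 3.25, 2.92 and 2.51 CPM with guide 1 and 2.67, 2.68 and 2.93 CPM with guide 2, against 0.973, 1.41 and 1.01 CPM in GFPsg. The groups did not overlap. The log2 change was 1.33 ± 0.14 (SE; edgeR adjusted p = 5.73e-07). Of 13 muscle markers 6 were tested, and 2 of these had passed the filter only through the guide libraries. Among the 6, 3 were higher and 2 lower, against 24.7% and 26.3% of all tested genes, and 1 was not called. The higher ones were Acta1, Tnnt2 and Smtn. Acta1 had passed only through the guide libraries, so it had to be higher with the guides to be tested. The cardiac troponin gene Tnnt2 was among the higher ones (7.05 ± 0.57 CPM with guide 1, 5.09 ± 0.54 CPM with guide 2 and 0.795 ± 0.12 CPM in GFPsg). The titin gene Ttn and the transcription factor gene Mef2c were the lower ones, and the summed level of the list was 73.7 to 79.0, 77.0 to 80.0 and 81.4 to 86.1 CPM with guide 1, with guide 2 and in GFPsg. That order came from Mef2c, since the other 12 markers summed to 22.4 to 23.9, 21.7 to 22.4 and 15.2 to 17.2 CPM in the same order, higher with the guides. Most of that sum was Smtn (means of 14.9, 15.4 and 13.3 CPM) and Tnnt2, so it describes mainly 2 genes. Mef2c was left out after the values had been seen. The muscle determination genes Myod1, Myf5 and Pax7 were at 0 in every library, and the part of muscle genes in the Des result was not tested. An antisense gene, Gm15179, shares 5.86% of the Des exons and had 1 to 9 reads with the guides and 1 read in each control.

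Prph (ENSMUSG00000023484, chromosome 15, 99055174 to 99058978, plus strand) encodes peripherin, the type III filament of peripheral neurons. It had 2.04, 1.96 and 2.41 CPM with guide 1 and 1.80, 2.12 and 2.26 CPM with guide 2, against 0.473, 0.600 and 0.573 CPM in GFPsg. Every guide library lay above the highest control, on 137 to 188 reads with the guides and 35 to 41 reads in GFPsg. The log2 change of 1.94 ± 0.16 was the largest of the tested members (SE; edgeR adjusted p = 2.12e-08), and 3.28% of all tested genes had a higher one. Of 12 neuronal markers, Tubb3 alone was tested, and it fell by 0.67 on the log2 scale. The summed level of the list was 58.3 to 58.8, 62.9 to 64.6 and 94.6 to 99.7 CPM with guide 1, with guide 2 and in GFPsg. Nearly all of that sum was Tubb3, which averaged 58.3, 63.5 and 96.8 CPM in the same order, so it describes 1 gene. The synaptic gene Snap25 and the neurofilament gene Nefl had no read in any library, and Nefm and Nefh had at most 1 and 4 reads.

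Nes (ENSMUSG00000004891, chromosome 3, 87971078 to 87980451, plus strand) encodes nestin, which assembles with vimentin in progenitor and neural crest derived cells. It had 59.4, 58.1 and 57.6 CPM with guide 1 and 64.9, 53.5 and 53.2 CPM with guide 2, against 23.8, 19.0 and 21.2 CPM in GFPsg. All guide libraries lay above all controls. The log2 change was 1.44 ± 0.07 (SE; edgeR adjusted p = 1.87e-11), or 1.40 without guide 2 replicate 1, the highest library for Nes. That library was also the highest of its group for the linker genes Plec, Dst and Macf1. Synm (ENSMUSG00000030554, chromosome 7, 67730160 to 67759742, minus strand) encodes synemin, which joins desmin or vimentin filaments to adhesion sites. It had 1.51, 2.15 and 1.98 CPM with guide 1 and 1.85, 1.61 and 2.08 CPM with guide 2, against 0.865, 0.585 and 0.629 CPM in GFPsg. The groups did not overlap, and the log2 change was 1.42 ± 0.18 (SE; edgeR adjusted p = 3.93e-06). The gene Ttc23 on the other strand shares 1.06% of the Synm exons and had 725 to 906 reads with the guides and 898 to 1061 reads in GFPsg, against 119 to 160 and 39 to 64 reads for Synm, so reads of the shared stretch cannot be told apart without the strand setting.

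Promoter windows from RefSeq (GRCm38.p6, the assembly of mm10), covering 250 bases before to 50 bases after the annotated start, were found for 9 of the 10 members, with 2 windows for Lmna. Krt19 had none in the table. Those of Vim, Nes and Prph are printed because these genes were the most abundant member, the neural crest member and the member with the largest change. Capitals mark matches on either strand to the TATA box, searched as the letters TATAAA, the GC box, searched as the letters GGGCGG, and the CCAAT box. Also searched were the AP-1 site, as the letters TGANTCA, the TEAD core, as the letters GGAATG, and the core of the M-box that MITF can bind, as the letters CATGTG. No 2 matches in these 3 windows overlapped.
Vim, chr2:13574061-13574360, plus strand: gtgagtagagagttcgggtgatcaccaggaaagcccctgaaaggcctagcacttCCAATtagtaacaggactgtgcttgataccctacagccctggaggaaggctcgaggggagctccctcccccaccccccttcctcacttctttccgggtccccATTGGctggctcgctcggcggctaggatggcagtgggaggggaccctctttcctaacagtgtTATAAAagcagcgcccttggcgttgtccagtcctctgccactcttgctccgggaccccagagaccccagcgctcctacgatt
Nes, chr3:87970843-87971142, plus strand: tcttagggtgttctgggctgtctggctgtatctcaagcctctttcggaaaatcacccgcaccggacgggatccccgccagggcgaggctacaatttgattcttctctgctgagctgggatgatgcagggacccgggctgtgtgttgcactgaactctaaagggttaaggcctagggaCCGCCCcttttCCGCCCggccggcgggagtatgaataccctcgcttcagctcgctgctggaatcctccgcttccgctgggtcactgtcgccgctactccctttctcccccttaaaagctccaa
Prph, chr15:99054924-99055223, plus strand: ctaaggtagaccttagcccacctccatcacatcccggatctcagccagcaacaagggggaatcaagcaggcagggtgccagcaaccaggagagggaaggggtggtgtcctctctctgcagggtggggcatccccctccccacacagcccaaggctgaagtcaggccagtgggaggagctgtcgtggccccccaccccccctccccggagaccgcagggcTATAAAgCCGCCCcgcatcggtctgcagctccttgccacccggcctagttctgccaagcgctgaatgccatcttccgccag

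The Vim window held a TATA box starting 32 bases before the RefSeq start and 2 CCAAT box matches farther upstream. The Prph window held a TATA box starting 31 bases before the start, followed by a GC box starting 24 bases before the start. The Nes window held 2 GC boxes and no TATA box. The letters TATAAA were in 3 of the 10 member windows (Vim, Prph and Krt8) and in 13.6% of 32851 RefSeq windows of the same length. In Krt8 the 2 matches began 3 and 1 bases before the start, unlike those of Vim and Prph farther upstream. The GC box was in 5 of 10 and in 35.7%. The CCAAT box was in 3 of 10 and 37.4%, and AP-1 in 1 of 10, a window of Lmna, and 7.81%. The TEAD and M-box cores were in 0 of 10 member windows and in 14.7% and 14.2% of all windows, which says only that these letters are not in these windows.

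Among keratins the members differed in whether they were detected at all. Krt7 (ENSMUSG00000023039, chromosome 15, 101411043 to 101430313, plus strand), a type II keratin of simple and ductal epithelia, had 11, 16 and 14 reads with guide 1 and 11, 12 and 10 reads with guide 2, against 4, 6 and 3 reads in GFPsg. The groups did not overlap, but the highest value was 0.215 CPM. The log2 change was 1.37 ± 0.43 (SE; edgeR adjusted p = 0.0138, with 0.00885 to 0.0762 over the alternatives), and the call was lost without GFPsg replicate 1 (1.28, adjusted p = 0.0604) and without GFPsg replicate 3 (1.17, adjusted p = 0.0762). Krt8 (ENSMUSG00000049382, chromosome 15, 101996698 to 102004482, minus strand), the type II keratin of simple epithelia, had 1 read in each of 2 libraries with guide 1 and none elsewhere. Its partner Krt18 (ENSMUSG00000023043, chromosome 15, 102028180 to 102032027, plus strand) had 1 read in guide 1 replicate 3 and 1 in guide 2 replicate 2, and Krt19 (ENSMUSG00000020911, chromosome 11, 100140810 to 100148665, minus strand), a type I keratin, had 1 read in guide 1 replicate 3. At this depth 3 reads, the limit that a count of 0 allows, stand for 0.038 to 0.045 CPM per library, a limit that covers counting error only, and any difference between groups in these 3 genes was not detectable. A ratio of Krt8 to Krt18 could not be formed. Of 14 epithelial markers 4 were tested, and 2 of these had passed the filter only through the guide libraries. Among the 4, 1 was higher and 1 lower, against 24.7% and 26.3% of all tested genes, and 2 were not called. The E-cadherin gene Cdh1 was the lower one, at 0.166 ± 0.09 CPM with guide 1, 0.217 ± 0.03 CPM with guide 2 and 0.777 ± 0.02 CPM in GFPsg. Esrp2, an epithelial splicing regulator, was the higher one (log2 change 1.47 ± 0.50, SE; edgeR adjusted p = 0.0207), with overlapping groups. It was 1 of the 2 that passed only through the guide libraries. Esrp2 thus had to be higher with the guides to be tested, and its call adds no support. The epithelial transcription factor gene Elf3, too low to be tested, had 12, 9 and 9 reads with guide 1 and 2, 8 and 5 reads with guide 2, against 0 in each GFPsg library. The summed level of the list was 0.937 to 1.06, 0.916 to 1.28 and 1.26 to 1.49 CPM with guide 1, with guide 2 and in GFPsg. Without Cdh1 the other 13 markers summed to 0.793 to 0.874, 0.710 to 1.03 and 0.462 to 0.716 CPM in the same order, and Epcam had at most 1 read in any library. Cdh1 was left out after the values had been seen. The part of epithelial genes in the Krt7 values was not tested.

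**Figure D2:**
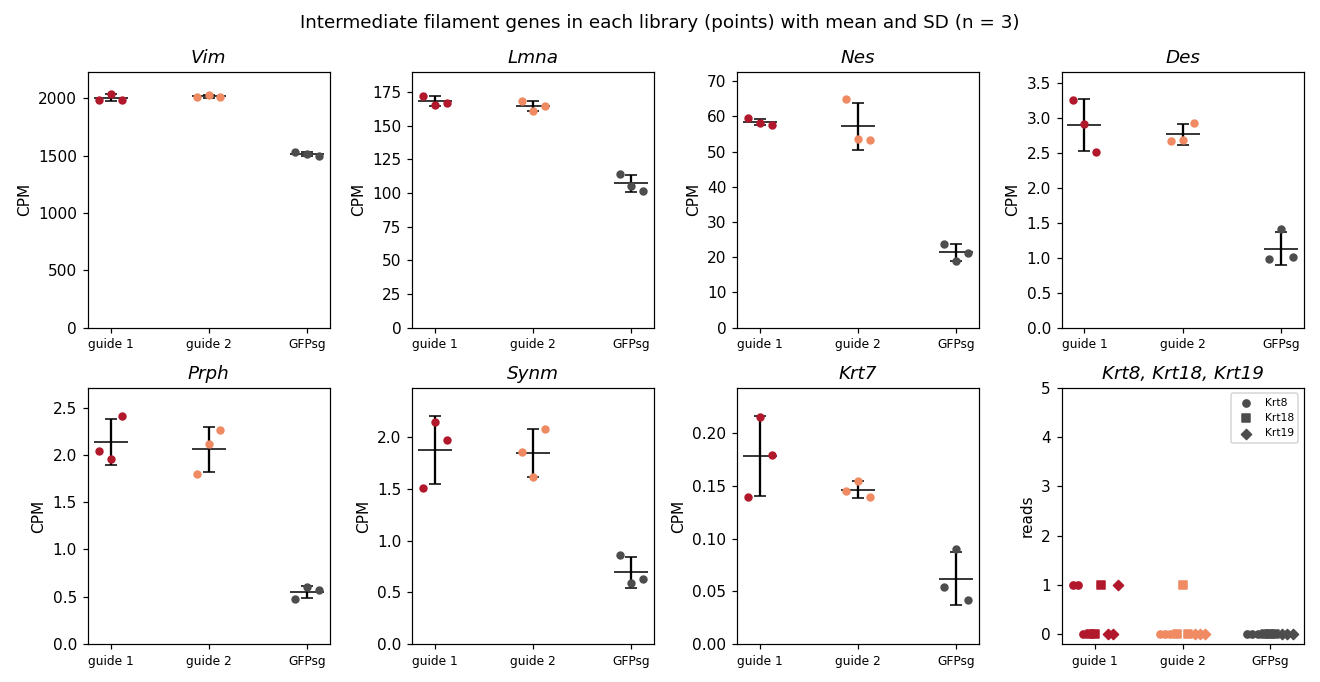
CPM of 7 members, and reads of Krt8, Krt18 and Krt19, in each of the 9 libraries (points), with mean and SD of 3 libraries for guide 1, guide 2 and GFPsg. In the 7 CPM panels the guide libraries all lie above the GFPsg libraries, and in the last panel no gene exceeds 1 read. The share of all tested genes separated in this way was not computed.

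Lmna (ENSMUSG00000028063, chromosome 3, 88480147 to 88509956, minus strand) encodes lamins A and C by splicing, which counts per gene do not separate. It had 172, 165 and 167 CPM with guide 1 and 169, 161 and 165 CPM with guide 2, against 114, 106 and 102 CPM in GFPsg. The groups did not overlap. The log2 change was 0.64 ± 0.04 (SE; edgeR adjusted p = 3.57e-10). The B-type lamin genes were not called. Lmnb1 averaged 95.3 ± 1.77 CPM with guide 1, 97.1 ± 1.78 CPM with guide 2 and 94.5 ± 0.70 CPM in GFPsg (log2 change 0.03 ± 0.03, SE; edgeR adjusted p = 0.522), and Lmnb2 had a log2 change of 0.03 ± 0.04 (edgeR adjusted p = 0.601). Scaled by library size alone, both were called higher by 0.11 (edgeR adjusted p = 0.0113 and 0.0330), against 0.72 for Lmna.

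The balance of A-type to B-type lamin mRNA was measured as a ratio within each library, which needs no scaling between libraries. The log2 ratio of Lmna to Lmnb1 reads per kb was −0.14, −0.15 and −0.19 with guide 1 and −0.21, −0.25 and −0.19 with guide 2, against −0.72, −0.81 and −0.87 in GFPsg. The mean was −0.19 ± 0.04 with the guides (SD, n = 6) and −0.80 ± 0.08 in GFPsg (SD, n = 3), a difference of 0.61 (two-sided exact permutation test over libraries, p = 0.0119, the smallest it can give). The test pooled the libraries of both guides as a single group. The members had been chosen with earlier results known, and Lmna but not Lmnb1 was called higher above. This p is thus descriptive and adds no support. The ratio differed in the same direction in 6 of 6 guide libraries. With the guides, whether Lmna or Lmnb1 was the more abundant depended on the length used, while in GFPsg Lmnb1 was the higher under both lengths. The ratio on a linear scale was 0.842 to 0.909 with the guides and 0.547 to 0.608 in GFPsg for the union of exons, and 1.19 to 1.29 and 0.776 to 0.863 for the longest transcript. The log2 ratio of Vim to Nes was 5.56 ± 0.11 with the guides (SD, n = 6) and 6.59 ± 0.15 in GFPsg (SD, n = 3), a difference of −1.03 (two-sided exact permutation test, p = 0.0119, and 0.0119 after Benjamini-Hochberg adjustment over the 2 ratios). Both guides were pooled here too, and the larger change of Nes was already known, so this p is also descriptive. Vim reads per kb were 41.8 to 51.3 times those of Nes with the guides and 87.1 to 108 times in GFPsg for the union of exons. For the longest transcript they were 64.8 to 79.4 and 135 to 167 times.

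**Figure D3:**
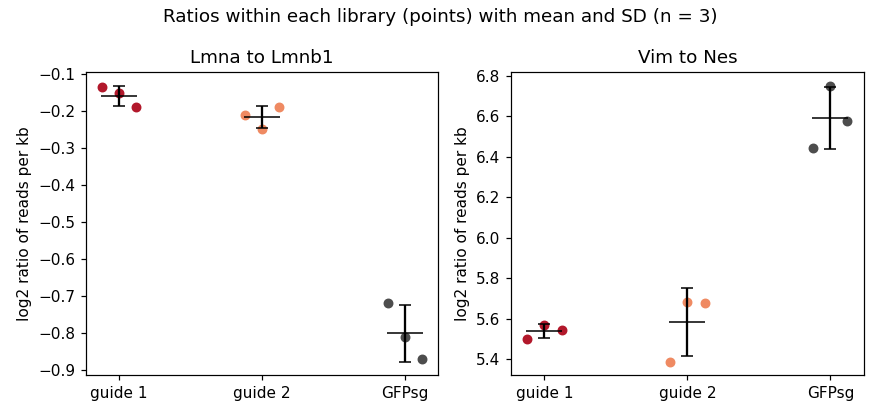
Log2 ratio of reads per kb of exon, Lmna to Lmnb1 and Vim to Nes, in each library (points) with mean and SD of 3 libraries for guide 1, guide 2 and GFPsg. The guide libraries lie above GFPsg for Lmna to Lmnb1 and below GFPsg for Vim to Nes, with no overlap.

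Each guide was also set against GFPsg alone, with the same control libraries serving both comparisons. With guide 1 all 7 tested members were called higher, against 23.8% of all tested genes. The 7 include Krt7, which passed the filter on low counts only through the guide libraries. All members were chosen with earlier results of these data known, so these counts are descriptive. With guide 2 the count was also 7, against 22.1% of all tested genes, but Krt7 lay at the threshold (edgeR adjusted p = 0.0498). The count was 6 in 14 of 18 alternatives, among them DESeq2, the replicate block and a fit of only the groups compared, and Krt7 was the gene lost or not tested. For the other 6 the highest edgeR adjusted p was 1.85e-05. The log2 changes with guide 1 and guide 2 were 1.96 and 1.91 for Prph, 1.45 and 1.42 for Nes, 1.43 and 1.41 for Synm, 1.51 and 1.23 for Krt7, and 1.36 and 1.29 for Des. For Lmna they were 0.65 and 0.62, and for Vim 0.41 and 0.42. Guide 2 was then set against guide 1 directly. edgeR called 3.68% of all tested genes in that comparison and 0 of the 7 members, of which 0 had an unadjusted p under 0.05, and limma-voom called 0 of 7 and DESeq2 0 of the 6 for which it gave an adjusted p. The 95% interval of the difference was −0.06 to 0.08 on the log2 scale for Vim, −0.12 to 0.06 for Lmna and −0.19 to 0.13 for Nes. It was wider for the lower genes, −0.37 to 0.26 for Prph, −0.37 to 0.23 for Des, −0.40 to 0.35 for Synm and −1.14 to 0.59 for Krt7.

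The rest of the intermediate filament family was largely undetected. Of 59 other listed genes 58 were found in the table, 32 of these had no read in any library, and 7 were tested. Of the 7, 2 were called higher and 2 lower, against 24.7% and 26.3% of all tested genes, and 3 were not called. Their median log2 change was 0.03, against −0.02 over all tested genes. Krt80, a type II keratin of the epidermis, had 27.5, 29.5 and 27.6 CPM with guide 1 and 29.8, 27.1 and 26.0 CPM with guide 2, against 9.19, 7.29 and 8.99 CPM in GFPsg. These did not overlap, and at 9.15 TPM with guide 1, 9.14 TPM with guide 2 and 2.61 TPM in GFPsg it was the highest keratin measured. Its log2 change was 1.72 ± 0.07 (SE; edgeR adjusted p = 1.89e-12), and no type I keratin of either list was tested. Iffo2, an intermediate filament family orphan gene, rose by 0.78 ± 0.04 (SE; edgeR adjusted p = 1.49e-10), whereas its relative Iffo1 was not called (−0.15 ± 0.08, adjusted p = 0.153). Gfap, the filament of astrocytes and some glia, was lower, averaging 1.58 ± 0.36 CPM for guide 1 and 1.97 ± 0.16 CPM for guide 2, against 3.59 ± 0.33 CPM in GFPsg (log2 change −1.02 ± 0.13, SE; edgeR adjusted p = 3.57e-06). Bfsp2, a beaded filament gene of the lens, fell to 8.08 ± 0.70 and 10.0 ± 0.74 CPM with guide 1 and guide 2, against 17.2 ± 0.46 CPM in GFPsg (−0.93 ± 0.06, SE; edgeR adjusted p = 1.25e-09).

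**Figure D4:**
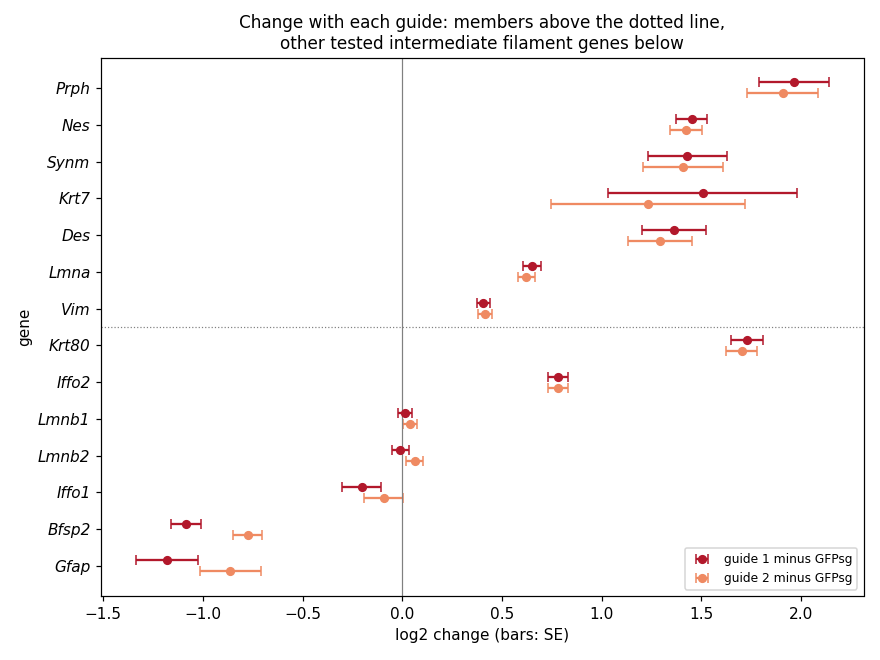
Log2 change against GFPsg with guide 1 and with guide 2 (points, bars are SE) for 7 members and for the 7 other intermediate filament genes tested. All members lie above 0, Lmnb1 and Lmnb2 lie near 0, and Bfsp2 and Gfap lie below it.

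Genes that anchor or turn over filaments moved in both directions. Of 27 listed, 23 were tested, of which 11 were higher, 7 lower and 5 not called, with a median log2 change of 0.11. Over all tested genes 24.7% were higher and 26.3% lower. In this list 3 of the higher genes (Eppk1, Ppl and Pkp3) passed the filter on low counts only through the guide libraries. Plec, which encodes plectin, the linker that ties vimentin, desmin and keratin filaments to adhesions, had 244, 243 and 247 CPM with guide 1 and 281, 234 and 197 CPM with guide 2, against 72.8, 60.2 and 59.0 CPM in GFPsg. Its log2 change was 1.91 ± 0.09 (SE; edgeR adjusted p = 9.45e-12). Pkp2, which encodes the desmosomal protein plakophilin 2, averaged 41.4 ± 1.00 CPM with guide 1, 39.5 ± 0.81 CPM with guide 2 and 9.29 ± 0.26 CPM in GFPsg (2.12 ± 0.05, SE; edgeR adjusted p = 2.83e-16). Rock2, a kinase that phosphorylates vimentin, rose by 0.71 ± 0.04 (edgeR adjusted p = 6.26e-11), while Pkp4, a plakophilin of cell junctions, fell by 0.52 ± 0.04 (SE; edgeR adjusted p = 8.08e-09). The other giant linkers Dst (0.05 ± 0.07) and Macf1 (0.01 ± 0.06) were not called.

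Of 20 lamin partners and processing genes, all of which were tested, 11 were higher, 3 lower and 6 not called, with a median log2 change of 0.12. Over all tested genes the shares were 24.7% higher and 26.3% lower. Syne3, which encodes nesprin-3, the outer nuclear membrane protein that binds plectin, had 18.7, 17.3 and 18.0 CPM with guide 1 and 18.4, 15.8 and 14.7 CPM with guide 2, against 3.85, 4.00 and 3.18 CPM in GFPsg. Its log2 change was 2.22 ± 0.09 (SE; edgeR adjusted p = 1e-12), and the groups did not overlap. Tor1aip1, which encodes the lamina-associated protein LAP1, rose by 0.72 ± 0.03 (edgeR adjusted p = 9.63e-12), and Sun2, an inner nuclear membrane anchor of nesprins, rose by 0.46 ± 0.05 (edgeR adjusted p = 6.53e-07). The actin-binding nesprin gene Syne1 fell by 0.45 ± 0.05 (SE; edgeR adjusted p = 2.87e-07). The changes of the other called members of this list lay between −0.33 and 0.38, and small changes near 0 depended on scaling, since Zmpste24 and Ankle2 were called higher with library size alone, Zmpste24 also with the DESeq2 size factors.

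**Figure D5:**
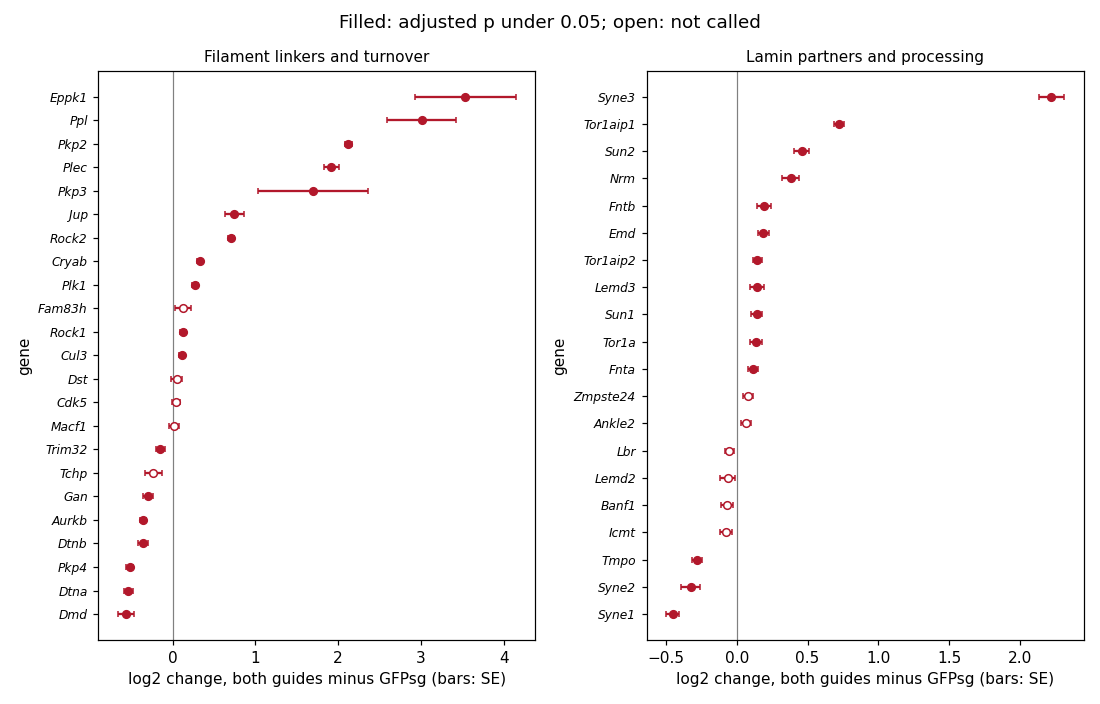
Log2 change, both guides minus GFPsg (points, bars are SE), of 23 filament linker and turnover genes and 20 lamin partner and processing genes. Plec, Pkp2 and Syne3 are among the highest, and Dst, Macf1 and several lamin partners lie near 0.

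Markers of stroma and leukocytes were measured beside these groups, since fibroblasts and leukocytes also carry vimentin. Of 10 fibroblast and endothelial markers 5 were tested, with 3 higher, 1 lower and 1 not called. Over all tested genes 24.7% were higher and 26.3% lower. The summed level of the 10 was 245 to 256, 210 to 244 and 16.2 to 18.9 CPM with guide 1, with guide 2 and in GFPsg. In the guide libraries most of it came from Col1a1. Without Col1a1 the other 9 summed to 24.6 to 25.0, 22.1 to 24.4 and 8.97 to 11.8 CPM in the same order. Most of that remainder was Pdgfrb (log2 change 1.45) and Col1a2 (1.68), so it describes mainly these genes. Pdgfra was the gene not called (log2 change −0.04). The lower one was Vwf, the only endothelial marker tested (log2 change −2.11, edgeR adjusted p = 6.98e-07). Dcn and Cdh5 had at most 1 read in any library. Of 8 leukocyte markers 3 were tested, all higher, against the same 24.7% of all tested genes, and Cx3cr1 passed only through the guide libraries. The summed level of the 8 was 6.54 to 6.91, 5.65 to 5.92 and 2.57 to 3.03 CPM in the same order of groups. Most of it was Cd68 (means of 3.93, 3.88 and 1.83 CPM) and Lyz2 (means of 2.51, 1.76 and 0.993 CPM), so it describes mainly these genes. Ptprc, the pan-leukocyte marker, and Itgam had no read in any library. The part of these genes in the filament results was not tested.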

How the data were processed

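RNA-seq was analysed from 9 libraries in 3 groups of 3. The authors deposited raw counts of reads per Ensembl gene, not normalized. Per the submitters' processing notes, bcl2fastq, HISAT2 and HTSeq were used with mm10, and the sources used here give no versions, annotation, strand setting or filters. Symbols, positions and exon lengths came from GENCODE release M21 on mm10, which matched 54723 of 54752 identifiers (Krt85 of the lists was not matched). Genes were kept by filterByExpr with a count minimum of 10, and 17931 were tested with edgeR 4.0.16 (R 4.3.3) by quasi-likelihood F tests in 1 fit of 3 groups after TMM scaling, with Benjamini-Hochberg adjustment over all of them. Both guides together (their average), and each alone, were compared with GFPsg, and guide 2 with guide 1. SEs are the change over the square root of F, CPM used TMM-scaled totals, and TPM used the union of exons. DESeq2 1.42.0 and limma-voom (limma 3.58.1) were alternatives. The script was tested on simulated data. No replicate pair agreed within sampling noise (chi-square per degree of freedom 7.75 to 25.2). Named were all members, Tada2b, called genes of the list of other filament genes, and up to 4 genes with the lowest p in the linker and lamin partner lists. Further list members, the pigment cell genes and marker genes were named after their values were seen. The members and lists were chosen with earlier results of these data known.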

Additional observations from a re-analysis of the deposited data

Results flagged for a closer look

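Genes named in the report were listed here where guide 2 and guide 1 differed in a direct edgeR comparison, which means that their changes against the shared GFPsg libraries differed. Bfsp2 was higher with guide 2 than with guide 1 by 0.31 on the log2 scale (edgeR adjusted p = 0.0331), and none of the 7 tested members was in this group. The muscle marker Tnnt2 was lower with guide 2 (−0.47, edgeR adjusted p = 0.0163), as was Tada2b itself (−0.28, adjusted p = 0.00671). The pigment cell genes, which were lower with each guide than in GFPsg, were higher with guide 2 than with guide 1, Tyr by 0.66, Pmel by 0.59, Tyrp1 by 0.50, Mlana by 0.50 and Dct by 0.44 (edgeR adjusted p from 6.33e-08 to 7.28e-06).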

How the results depend on the processing

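The count of members called higher with both guides together stayed between 6 and 7 over 17 alternatives, and Krt7 was the gene that was lost or not tested. It was lost without GFPsg replicate 1 and without GFPsg replicate 3, and it did not pass a stricter count minimum of 50. With guide 1 alone the count was 6 in 4 of 18 alternatives, among them the one without guide 1 replicate 2. With guide 2 alone the count was 6 in 14 of 18 alternatives and 7 in 4, and Krt7 was again the gene lost or not tested. The other 6 members kept their direction and call in all 17, with log2 changes of 0.41 to 0.50 for Vim, 0.61 to 0.72 for Lmna, 1.37 to 1.52 for Nes, 1.23 to 1.52 for Des, 1.33 to 1.61 for Synm and 1.84 to 2.02 for Prph. With the replicate number as a block, 7 members were called with both guides, 7 with guide 1 and 6 with guide 2, while calls over all genes rose to 9938, against 9141 without it, and those between the guides to 1705, against 660. The labels do not say whether same-numbered libraries were paired. The correlations of their deviations were low, from −0.01 to 0.10, but all 9 libraries correlated best with their own number. An effect shared by replicate number was thus not excluded, and the main tests take no account of it. Permuted within replicate numbers, with both guides again pooled, both ratios gave an exact p of 0.0370, the smallest possible and likewise descriptive. Over 11 alternatives each the differences were 0.58 to 0.65 for Lmna to Lmnb1 and −1.10 to −0.95 for Vim to Nes. With library size alone, 4 other filament genes were called higher, against 2, the added ones being Lmnb1 and Lmnb2, and all alternatives for this list and the linker and lamin partner lists were chosen after seeing the data. The Krt8 to Krt18 ratio was not run, since both had 0 or 1 read, and depth limits Krt7.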
